A study of Mus musculus with 7 samples.

Results

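Early erythroid progenitors are the precursors of red blood cells that have entered the erythroid lineage but have not yet filled with hemoglobin. In the 4 libraries that the study's text describes as tumors (NEJ634, NEJ687, NEJ709 and NEJ723), such cells were chosen by measured values. A cell barcode had to hold over 5000 unique molecular identifiers (UMIs, each standing for 1 captured RNA molecule) with at most 20% of them from mitochondrial genes. Globin genes (all with names starting Hba- or Hbb-, embryonic forms included) had to give under 10% of the UMIs. The 5 erythroid genes Car1, Klf1, Gata1, Epor and Rhd had to give together at least 10 UMIs, and at least 0.1% of the UMIs left after globin and mitochondrial genes were set aside. The rule found 51 cells in NEJ634, 310 in NEJ687, 7 in NEJ709 and 183 in NEJ723, which made 551 of the 14882 barcodes of these libraries that passed the depth and mitochondrial limits (3.70%, 95% exact binomial interval 3.40 to 4.02%). All 7 libraries of the series held 18865 such barcodes.

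The libraries were droplet single-cell RNA libraries, read from the 3′ end of the transcript, of liver cells. The 4 tumor libraries came from ABC-Myc mice on the C57BL/6J background, while the study's text calls the mice of the other 3 libraries healthy controls. ABC-Myc mice carry Alb-Cre and a human c-MYC transgene behind a loxP-flanked stop, so Cre driven by the albumin promoter switches on MYC in albumin-expressing cells of the liver lineage, and blood cells are not the cells in which the transgene is designed to be active. The labels describe all 7 libraries by the same model and give no groups, ages or treatments, so every value is given by library, no test between groups was made, and each library stands for 1 sample. The livers were perfused, digested with collagenase IV and strained, and hematopoietic cells were not sorted out by the steps described in the sources used here.

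Erythroid progenitors arise from stem and multipotent progenitor cells that carry the receptor tyrosine kinase Kit and the transcription factors Gata2 and Myb. As they commit, the transcription factors Gata1 and Klf1 turn on the erythropoietin receptor Epor, the enzymes of heme synthesis, the proteins of the red cell membrane and finally the globins, while Kit, Myb and Gata2 are shut down. The liver is the main site of this process in the fetus, and in the adult mouse it moves to bone marrow and spleen but can return to the liver under stress.

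Gata1 binds GATA motifs, here searched as AGATAA or, as the other spelling, as TGATAA. Klf1 binds the box CACCC. The sequences just upstream of the start sites of 3 rule genes are shown, with these words in capitals wherever they stand on either strand. They were taken from the RefSeq promoter table (GRCm38.p6) and run up to its start site, with bases of GENCODE M21 exons left out. The start sites of both annotations differ for these 3 genes. The Klf1 window was cut to 196 bases where the GENCODE gene begins. The Gata1 window lies inside the longer GENCODE gene given with its level below, and the Epor window lies a short way upstream of the GENCODE gene. Car1 and Rhd are named only.
Klf1, chr8:84901732-84901927, plus strand: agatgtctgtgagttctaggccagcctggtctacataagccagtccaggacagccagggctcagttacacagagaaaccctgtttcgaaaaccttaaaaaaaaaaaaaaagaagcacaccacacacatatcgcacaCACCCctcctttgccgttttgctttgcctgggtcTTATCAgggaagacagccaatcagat
Gata1, chrX:7967911-7968160, minus strand: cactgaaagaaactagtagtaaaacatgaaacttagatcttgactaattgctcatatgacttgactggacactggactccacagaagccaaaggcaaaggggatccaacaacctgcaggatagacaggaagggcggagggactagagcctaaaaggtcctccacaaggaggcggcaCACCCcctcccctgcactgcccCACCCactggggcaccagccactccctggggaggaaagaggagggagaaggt
Epor, chr9:21963577-21963826, minus strand: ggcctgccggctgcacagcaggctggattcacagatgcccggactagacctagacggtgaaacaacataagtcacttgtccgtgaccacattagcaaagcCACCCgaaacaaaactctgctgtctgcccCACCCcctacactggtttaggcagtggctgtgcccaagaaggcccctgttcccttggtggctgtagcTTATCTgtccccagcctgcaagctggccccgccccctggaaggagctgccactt
The 196 bases before Klf1 held TGATAA once, written TTATCA on the strand shown, and CACCC once. The 250 bases before Epor held AGATAA once, written TTATCT on the strand shown, and CACCC at 2 places. The 250 bases before Gata1 held CACCC at 2 places and neither GATA word. Among 32851 promoter windows of 250 bases, 9.99% held AGATAA and 7.94% held TGATAA, while the box CACCC was in 52.0% and is thus a common word. In windows of 196 bases the shares were 8.26%, 6.64% and 43.7%. These matches describe letters and do not show binding.

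The libraries differed in ways that touch every result below. The members' median depth was 9911 UMIs in NEJ634, 29146.5 in NEJ687, 48098 in NEJ709 and 23905 in NEJ723, with medians of 2659, 4426.5, 5700 and 3980 genes. NEJ709 gave 7 members, its label text names NEJ634, and 4 of these 7 barcodes were also present in NEJ723 with 557 to 892 UMIs, between 0.873% and 1.16% of their UMIs in NEJ709. The members of NEJ634 held 709 UMIs of Xist and 0 of 4 Y-linked genes, while those of NEJ709 held 0 and 49, so these were not the same cells deposited under both names. Across the 4 libraries, 37 members had a barcode with over 500 UMIs in another of the 7 libraries, and 0 were members in both. Free RNA, taken as the barcodes ranked 45000 to 90000 by UMI count, held 5.85%, 11.7%, 33.5% and 5.66% globin UMIs in NEJ634, NEJ687, NEJ709 and NEJ723. These barcodes had medians of 562, 97, 13 and 368 UMIs, and NEJ634 had 71066 barcodes with over 500 UMIs, so the set differs in kind between the libraries. Results that rest on NEJ709 are therefore also given without it.

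Members made up very different shares of the libraries. They were 1.97% of barcodes passing the depth and mitochondrial limits in NEJ634 (exact binomial interval 1.47 to 2.59%), 8.21% in NEJ687 (7.36 to 9.14%), 0.197% in NEJ709 (0.0790 to 0.404%) and 3.69% in NEJ723 (3.18 to 4.25%). Taken among barcodes with under 10% globin UMIs only, the shares were 2.13%, 18.7%, 2.19% and 8.73%, so NEJ634 and NEJ709 stood close together and NEJ687 stood highest by either denominator. These intervals, like all intervals given here, cover counting error within 1 library only. A share among captured barcodes also depends on how many other cells were captured, which was not tested.

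The rule rests mainly on Car1, carbonic anhydrase 1. It gave 80.7%, 74.1%, 92.5% and 79.1% of the members' rule-gene UMIs in NEJ634, NEJ687, NEJ709 and NEJ723. Of the 551 members, 14 had no UMI of the other rule genes, and with Car1 left out of the sum the rule found 5, 93, 0 and 33 cells. At the lower limit of the rule, 33 members had 10 to 12 rule-gene UMIs, and 27 barcodes that met the other limits had 7 to 9. At the upper globin limit, 52 members had 8 to under 10% globin UMIs and 65 barcodes had 10 to under 12%. Both limits thus had cells on either side.

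Levels below are the members' summed UMIs of a gene per 1000000 of their UMIs outside mitochondrial genes and these globin genes (CPM), with 95% exact Poisson intervals. Values for several libraries are in the order NEJ634, NEJ687, NEJ709 and NEJ723 unless they are named. The 5 rule genes describe how the members were chosen. Car1 (ENSMUSG00000027556, chr3:14766216-14808368) stood at 1782, 1929, 4162 and 1970 CPM. Klf1 (chr8:84901928-84905291), the erythroid Krüppel-like factor, stood at 128, 218, 60.9 and 134. Gata1 (chrX:7959260-7978071), the main erythroid GATA factor, stood at 58.0, 86.4, 52.6 and 79.6. Epor (chr9:21958897-21963506), the receptor for erythropoietin, stood at 47.7, 72.4, 52.6 and 67.9. Rhd (chr4:134864536-134896172), a membrane protein of the Rh blood group, stood at 192, 298, 172 and 240. NEJ687 was highest for Klf1, Gata1, Epor and Rhd, and the 7 cells of NEJ709 were highest for Car1 and lowest for Klf1. Coordinates are those of GENCODE M21 on GRCm38, matched by gene identifier, and the build behind the counts is not given in the sources used here.

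Myb (ENSMUSG00000019982, chr10:21124935-21160984), a transcription factor that keeps blood progenitors immature and dividing, was named as a marker of the members but had no part in the rule. Members of NEJ634 held 180 CPM of it (154 to 209), those of NEJ687 78.3 (72.7 to 84.3), those of NEJ709 257 (208 to 315) and those of NEJ723 159 (148 to 171). NEJ687 was the lowest, with intervals that do not cover the spread between cells. Hemoglobin-making erythroblasts of the same libraries (4373 barcodes with 10 to under 50% globin UMIs and at least 10 UMIs, and 0.1%, of 5 erythroblast genes, Alas2 and Slc4a1 among them) held 2.91, 4.73, 29.1 and 10.0 CPM of Myb. A second comparison population, granule-gene progenitors, had the same limits as the members with Mpo, Elane, Prtn3 and Ctsg in place of the rule genes (607 barcodes). Their Myb level was 86.8, 93.0, 179 and 197 CPM, above the members in NEJ687 and NEJ723 and below them in NEJ634 and NEJ709.

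Kit (chr5:75574916-75656722), the receptor for stem cell factor, showed the same order against erythroblasts. It stood at 105, 47.8, 116 and 113 CPM in members and at 4.37, 2.68, 11.2 and 5.80 in erythroblasts. Genes of still earlier progenitors were low. Cd34, a surface protein of stem and early progenitor cells, stood at 2.07, 0.776, 0 and 2.42 CPM, with no UMI in the 7 cells of NEJ709. Gata2, the GATA factor that precedes Gata1, was at 10.4 (4.97 to 19.1), 7.09 (5.46 to 9.06), 2.77 (0.0701 to 15.4) and 26.9 (22.3 to 32.1). Gata2 was thus highest in NEJ723. A UMI of Myb was found in 60.8%, 51.9%, 85.7% and 51.9% of members and one of Kit in 37.3%, 40.3%, 71.4% and 45.9%, so a large part of the members had no UMI of Kit at this depth. In NEJ687 the members with 3 to under 10% globin held 10.5 CPM of Myb and 3.37 of Kit, beside 4.73 and 2.68 in the erythroblasts, so these markers fit the label for only part of the cells that the rule found.

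Shares of cells with a UMI depend on depth and are given with cells thinned to the same number of UMIs. Klf1 and Gata1 are rule genes, so their shares describe the choice of the members and support nothing, while Myb and Kit had no part in it. Klf1 was seen in 68.6%, 95.5%, 85.7% and 88.0% of members. At 5000 UMIs per cell, the shares were 45.1%, 65.5%, 28.6% and 51.4%. In barcodes rich in T- and NK-cell genes, which should lack Klf1, the thinned shares were 0 of 75 in NEJ634, which allows up to 4.80%, 0.870% in NEJ687, 0 of 36 in NEJ709, which allows up to 9.74%, and 2.03% in NEJ723. The median depth of those barcodes was 7640, 8327, 8744.5 and 6686 UMIs. Thinned shares of Gata1 in members were 21.6%, 33.9%, 28.6% and 32.2%, against 2.67% in NEJ634, 1.74% in NEJ687, 0 of 36 in NEJ709 and 0.508% in NEJ723 in the same barcodes. Thinned shares of Myb were 39.2%, 21%, 71.4% and 32.2% in members and 33.3%, 20.9%, 11.1% and 12.2% in these barcodes. In NEJ687 the members thus stood at the level of those barcodes. In NEJ634 the intervals of both overlapped (25.8 to 53.9% in members and 22.9 to 45.2% in those barcodes). Thinned shares of Kit were 23.5%, 15.2%, 14.3% and 23.5% in members, against 12%, 9.57%, 2.78% and 4.57% in these barcodes. The barcodes may not be lymphocytes only. Thinned, the T-cell gene Cd3e was found in 50.7%, 30.4%, 69.4% and 46.7% of them. The granule gene Mpo was found in 21.3%, 20.9%, 2.78% and 7.11%. Which of these barcodes held Myb or Kit was not tested.

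Markers of other cell types were counted in the members and in free RNA. The 4 granule genes summed to 115, 129, 5.53 and 5.51 CPM in members, against 11892, 16939, 15189 and 15386 in granule-gene progenitors and 435, 430, 937 and 214 in free RNA. The 6 basophil and mast-cell genes (among them Cpa3 and Prss34) were at 0, 13.2, 2.77 and 1.10, and 1 member of NEJ687 was rich in them. The 7 megakaryocyte genes (among them Pf4 and Itga2b) summed to 30.0, 34.7, 24.9 and 25.6 CPM, between 13.3% and 20.5% of their level in free RNA. The 10 hepatic genes, with Alb, Afp and H19 among them, summed to 1382, 59.2, 30.4 and 168 CPM, which was 13.5%, 0.727%, 0.767% and 2.02% of free RNA. Over 7 other classes (granule, hepatic, macrophage, T and NK, B, megakaryocyte and endothelial genes), 17, 13, 0 and 4 members met the limits of at least 1 class as well, 14 of them for hepatic genes in NEJ634. Late neutrophil genes were not among these classes, and 19, 13, 0 and 1 members were rich in them. In all, 59 members were rich in 1 of the 7 classes or in late neutrophil genes, 31 of them in NEJ634, where 20 of 51 members were left without them. Without these 59, a choice made after seeing the data, 125 genes were higher and 154 lower than in erythroblasts in 4 of 4 libraries. No doublet caller was run, and results without the members rich in the 7 classes are given with the processing alternatives.

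The globin share varied widely within the members, as it was limited only from above. Its median was 0.760%, 0.975%, 0.247% and 1.72%. Of the 551 members, 266 had under 1% globin UMIs, 70 had 1 to under 3% and 215 had 3 to under 10%. In NEJ687 these ranges held 155, 37 and 118 cells, and in NEJ723 they held 80, 23 and 80, so the middle range held the fewest cells in both although the ranges differ in width. Adult globins made up nearly all globin UMIs. The embryonic gene Hbb-y gave 0, 37, 1 and 18 UMIs in members, and Hbb-bh1 gave 0, 0, 0 and 2.

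**Figure D1:**
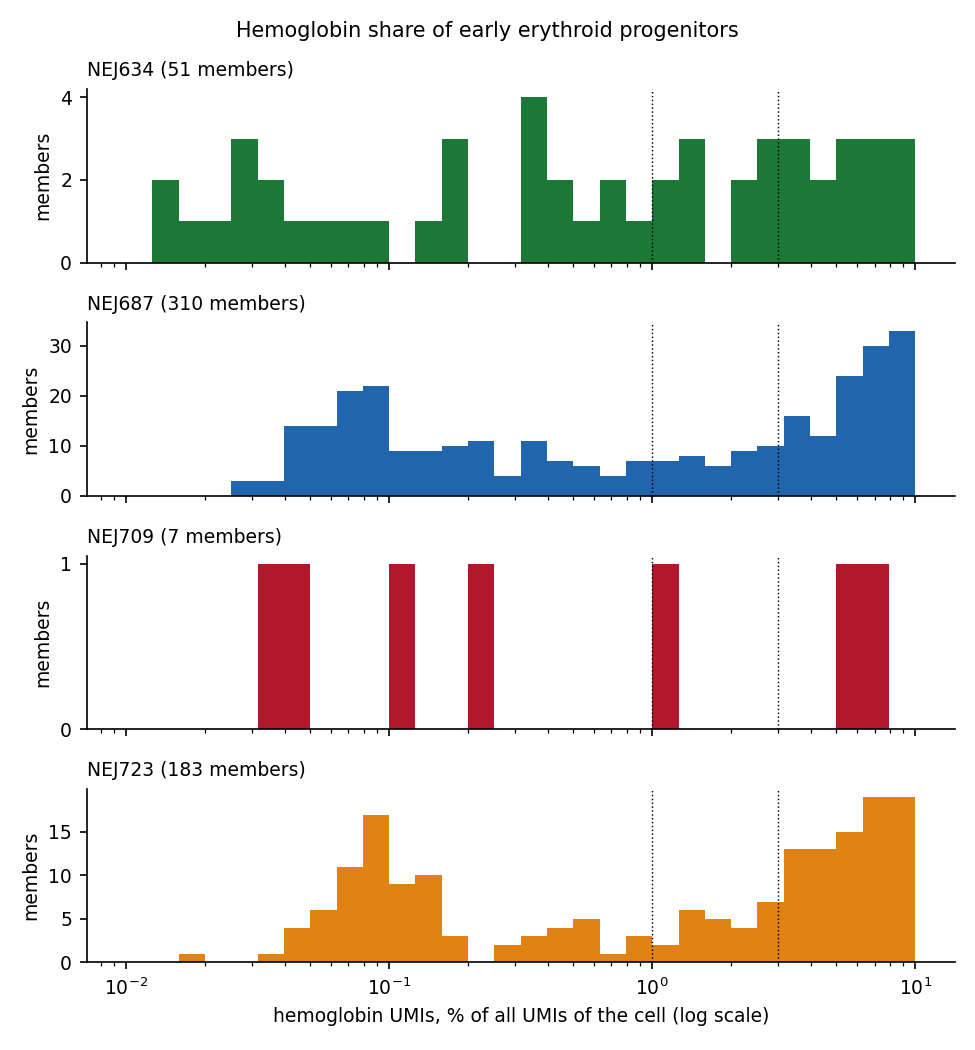
Number of members by the share of globin UMIs in the cell (percent of all UMIs, log axis), 1 panel per library, with dotted lines at 1 and 3%. The middle range holds 37 of 310 cells in NEJ687 and 23 of 183 in NEJ723, fewer than the ranges on either side, while NEJ709 has 7 cells in all.

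Against erythroblasts, the members expressed genes of ribosome production more highly and genes of the hemoglobin-making cell at lower levels. The globin share and 5 erythroblast genes chose the populations, so the comparison is a description. Of the members, 11, 140, 2 and 94 were rich in these 5 genes by the erythroblasts' own limits. Only the globin limit kept those members out of the erythroblasts. Of 1366 genes with at least 100 CPM in the higher population of each library, 123 were at least 2-fold higher in members in 4 of 4 libraries (9.0%) and 149 were at least 2-fold lower (10.9%). This balance depends on the total, since with globin and mitochondrial UMIs kept in it 343 genes were higher and 54 lower. Without NEJ709, 168 of 1567 genes were higher (10.7%) and 323 were lower (20.6%) in 3 of 3 libraries. The lists below were counted in these 3 libraries. Of the 10 genes of the early progenitor list, 0 passed the level filter.

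Ribosome biogenesis was the list with most genes higher in members. Of 15 genes 10 could be tested, 8 were higher and 0 lower, beside 10.7% higher among all genes tested. The 8 were Ncl, Npm1, Fbl, Nop58, Dkc1, Nolc1, Wdr12 and Nhp2. They encode nucleolar proteins and factors that process and modify ribosomal RNA. Dkc1 stood at 179, 170, 158 and 153 CPM in members and Wdr12 at 110, 139, 141 and 143. Both were at least 2-fold higher, so erythroblasts stood under 100 CPM. Dkc1 and Wdr12 thus passed the level filter only through the members and could be called only higher. The median log2 ratio of the tested genes was 1.99 in NEJ634, 1.83 in NEJ687 and 2.11 in NEJ723, against 0.10, 0.02 and 0.06 over all genes tested. Npm1, nucleophosmin, stood at 5029, 4170, 4641 and 3275 CPM in members, with log2 ratios to erythroblasts of 2.69 (2.56 to 2.82), 2.56 (2.52 to 2.60), 2.47 (2.39 to 2.54) and 2.44 (2.39 to 2.49).

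The 10 genes with the largest difference in this direction were Cdk6, Lyar, Npm1, Mybbp1a, Dnajc2, Mthfd1, Atic, Sms, C1qtnf12 and Ybx1. Of these, Cdk6, Lyar, Mybbp1a, Dnajc2, Mthfd1, Atic and Sms stood under 100 CPM in erythroblasts of each library. They passed only through the members and could be called only higher. Cdk6, a G1 cyclin-dependent kinase, stood at 171, 109, 277 and 199 CPM, 29.4-, 12.8-, 7.44- and 14.7-fold above erythroblasts. Lyar, a nucleolar factor, stood at 322, 352, 313 and 263 CPM, with log2 ratios of 3.15, 2.54, 2.54 and 3.03. Mybbp1a, a nucleolar protein that binds Myb, had log2 ratios of 2.40, 2.55, 2.58 and 2.88. Mthfd1 and Atic act in folate metabolism and purine synthesis, Sms makes spermine and Ybx1 binds RNA. Cdk4, the other G1 kinase of the Cdk6 kind, was 3.95-, 3.79-, 3.28- and 4.51-fold higher. Both belong to a cell cycle control list, of which 7 genes could be tested. Cdk4 and Cdk6 were its 2 higher genes, and 4 were lower (Ccnd3, Cdkn1a, Cdkn1b and E2f2). The list's medians were -1.08, -1.20 and -1.03 in NEJ634, NEJ687 and NEJ723. Cdkn1a and Cdkn1b stood under 100 CPM in members of these libraries and passed only through the erythroblasts. Endogenous Myc stood at 86.0, 36.3, 38.7 and 39.7 CPM, 2.57-, 2.21-, 2.59- and 2.32-fold above erythroblasts, but lay under the level filter. The counts are of mouse genes, so the human transgene was not measured.

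Heme synthesis was lower in members. Of 14 genes 12 could be tested, 0 were higher and 11 lower, with medians of -1.90, -1.87 and -1.78, and 6 were lower in 4 of 4 libraries. Alas2, Uros, Ppox, Slc25a38 and Slc25a39 stood under 100 CPM in members of each library and passed only through the erythroblasts. Alas2, the erythroid enzyme of the first step, stood at 38.3, 57.5, 47.0 and 66.8 CPM with log2 ratios of -4.79, -4.38, -4.41 and -4.06, but it was one of the genes that chose the erythroblasts.

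Red cell membrane genes were lower in the same way. Of 23 genes 18 could be tested and 17 were lower, among them ankyrin (Ank1) and protein 4.1 (Epb41), with medians of -2.39, -2.31 and -2.24, and 12 were lower in 4 of 4 libraries. Epb42, Gypc, Kel, Dmtn, Tmod1 and Icam4 stood under 100 CPM in members of each library and passed only through the erythroblasts. Of 12 erythroid transcription factors 7 could be tested, and Tal1, Nfe2, Gfi1b, Zfpm1, Sox6 and Klf3 were lower. In 4 of 4 libraries, 3 of these kept a 2-fold difference. All of the named factors but Zfpm1 stood under 100 CPM in members of each library and passed only through the erythroblasts. Tal1, a partner of Gata1, stood at 76.7, 85, 63.6 and 97.7 CPM with log2 ratios of -2.42, -1.80, -1.15 and -1.58. Sox6, a repressor of embryonic globin, had ratios of -3.30, -2.84, -0.80 and -2.43, and the ratio in NEJ709 stood apart. Of 7 tested iron genes, Tfrc, Slc25a37 and Ncoa4 were lower, the transferrin receptor Tfrc by log2 ratios of -2.0, -1.92 and -1.68 in NEJ634, NEJ687 and NEJ723. In NEJ709 its ratio was -0.50, and it turned to 0.20 when all UMIs were the total, to 0.01 as a mean over cells and to 0.08 in thinned cells.

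Mitosis genes were lower in members than in erythroblasts in the 3 libraries. Of 10 tested mitosis genes 6 were lower (Mki67, Ccna2, Ccnb2, Cdk1, Cenpe and Cenpf) and 0 higher in 3 libraries, with medians of -1.45, -1.20 and -1.28, but 0 of them were 2-fold lower in 4 of 4 libraries. Mki67, a protein of cycling cells, was at 909, 646, 620 and 711 CPM in members and at 3206, 2482, 766 and 2240 in erythroblasts. In NEJ709 the log2 ratio of Mki67 was -0.30, and it turned to 0.39 when all UMIs were the total, to 0.23 as a mean over cells and to 0.12 in thinned cells. Among 16 tested DNA replication genes 3 were lower (Ccne2, Rrm2 and E2f8), beside 20.6% lower among all genes tested, and 1 was lower in 4 of 4 libraries. Of these, Ccne2 and E2f8 stood under 100 CPM in members of each library and passed only through the erythroblasts. Members therefore carried Mki67 in every library, between 620 and 909 CPM, while the erythroblasts of NEJ709 stood apart from those of the other 3 libraries. The erythroblasts of NEJ709 also had a median mitochondrial share of 11.4%, against 1.53%, 0.663% and 1.67% in NEJ634, NEJ687 and NEJ723. Its part in the values of NEJ709 was not tested. Pim1, a kinase gene that Stat5 turns on, was the only gene of the erythropoietin signalling list to pass the level filter. It was at 58.0, 56.6, 33.2 and 37.5 CPM, with log2 ratios of -3.05, -3.01, -4.48 and -2.92. Pim1 thus passed only through the erythroblasts and could be called only lower.

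Several genes lowest in members relative to erythroblasts were neutrophil genes. Among the 10 with the largest difference were Alas2, Chil3, Cdkn2d, Ltf, Tmcc2, Smox, Camp, Lcn2 and Isg15, of which Chil3, Ltf, Camp and Lcn2 are known from neutrophils. The 6 late neutrophil markers summed to 2696, 774, 111 and 537 CPM in members. In erythroblasts they summed to 16810, 9611, 95980 and 12268, and in free RNA to 24170, 13471, 73748 and 6186. The erythroblast sum was below that of free RNA in NEJ634 and NEJ687 and above it in NEJ709 and NEJ723. Their part in the erythroblast contrast was not tested.

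**Figure D2:**
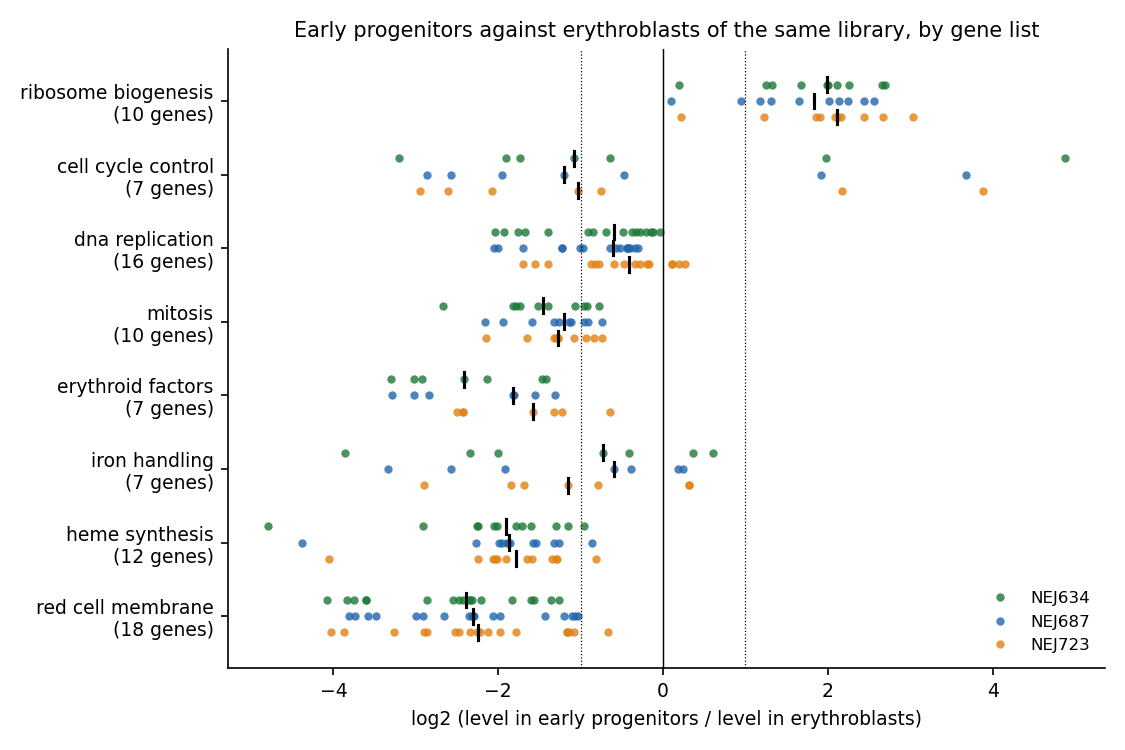
Log2 ratio of members to erythroblasts for the tested genes of 8 lists in NEJ634, NEJ687 and NEJ723, with each point a gene, black bars at the list's median and dotted lines at 2-fold. The ribosome biogenesis medians lie between 1.83 and 2.11, and those of heme synthesis and the red cell membrane lie below -1.7.

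Against granule-gene progenitors, which had the same globin limit, genes of the red cell were higher in members and 0 ribosome biogenesis genes were called. This population also held late neutrophil genes at 87865, 57602, 81346 and 40025 CPM, above free RNA in each library. It held hepatic genes at 9331 CPM in NEJ634 and basophil and mast-cell genes at 2156 CPM in NEJ687. Their part in this comparison was not tested. Of 1340 genes tested, 73 were at least 2-fold higher in members in 4 of 4 libraries (5.45%) and 146 were lower (10.9%). Without NEJ709, 104 of 1410 were higher (7.38%) and 160 lower (11.3%). Among 10 ribosome biogenesis genes tested in these 3 libraries, 0 were called in either direction, and their median log2 ratios were 0.94, 0.76 and 0.65, against 0.36, 0.22 and 0.24 over all genes tested. Npm1 was higher in members by log2 ratios of 1.25, 0.74, 1.03 and 0.64, under the 2-fold limit in NEJ687 and NEJ723. Cdk6 differed by 0.55, -0.59, 0.05 and -0.39 and Kit by 1.24, 0.33, 0.13 and 0.14, so neither had a difference past 2-fold in 1 direction across the libraries.

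The largest differences towards members were in Smim1, Car2, Rhag, Ermap, Blvrb, Hemgn, Gstm5, Aqp1, C1qtnf12 and Tspan33. All of these but Car2 and Blvrb stood under 100 CPM in granule-gene progenitors of each library. Those genes passed only through the members and could be called only higher. Car2, carbonic anhydrase 2, stood at 2273, 2538, 2327 and 2256 CPM in members, with log2 ratios of 5.18, 4.62, 5.56 and 6.45. Smim1 carries the Vel blood group, Rhag is the Rh-associated glycoprotein and Aqp1 is the water channel of red cells. C1qtnf12, a secreted C1q-related protein, was among the leading genes of both comparisons, at 441, 619, 255 and 333 CPM with log2 ratios of 2.66, 2.60, 2.53 and 2.19 to erythroblasts and 3.81, 4.30, 3.67 and 3.63 to granule-gene progenitors. Both ratios share the members' own level. In the 3 libraries without NEJ709, 6 of 7 tested heme genes were higher, beside 7.38% higher among all genes tested. Alas1, the housekeeping form of the first enzyme, was lower and passed only through the granule-gene progenitors. Of 9 tested membrane genes 8 were higher, beside the same 7.38%. Mki67 was above granule-gene progenitors by log2 ratios of 1.25, 1.07, 0.48 and 1.59. In the same 3 libraries, 2 of 7 tested mitosis genes (Mki67 and Ccnb1) and 3 of 12 tested DNA replication genes (Mcm2, Ccne1 and Rrm1) were higher. Among all genes tested 7.38% were higher. Of either list 0 were lower, and 0 were called in 4 of 4 libraries. Spi1, a transcription factor of the myeloid lineage, stood at 12.4, 12.5, 8.30 and 7.5 CPM in members and at 172, 332, 193 and 197 in granule-gene progenitors. Cd34 was also lower, against 13.8, 42.0, 46.2 and 81.2 CPM there.

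**Figure D3:**
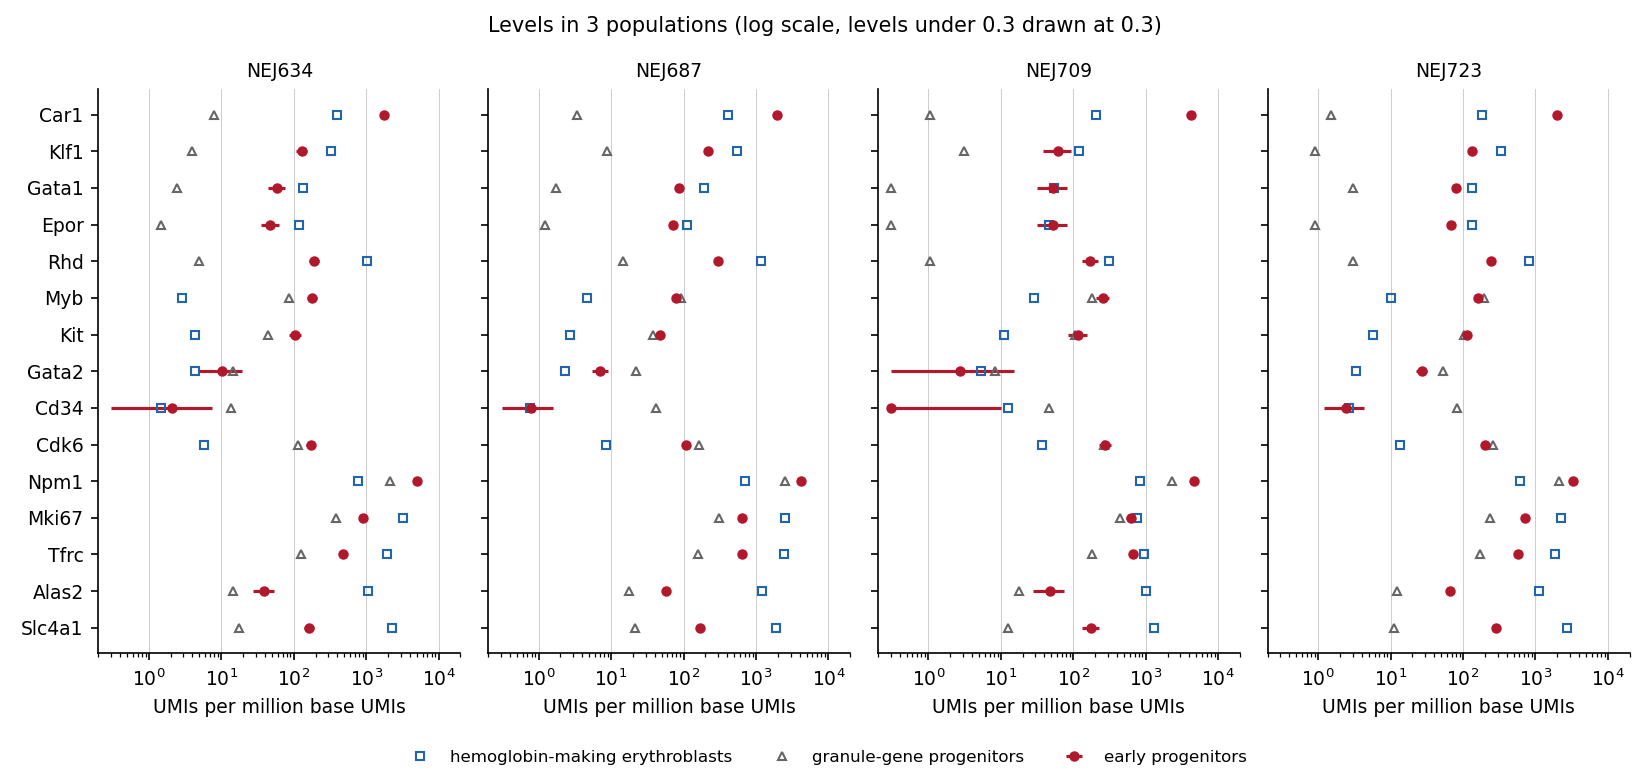
Level of 15 genes (CPM, log axis, values under 0.3 drawn at 0.3) in members, erythroblasts and granule-gene progenitors, with 1 panel per library and exact Poisson intervals as bars on the members. Myb and Kit lie far above the erythroblasts and near the granule-gene progenitors, and Alas2 and Slc4a1 lie between both populations.

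Within the members, gene levels differed along the globin share. Members with under 1% globin UMIs were set against those with 3 to under 10% in NEJ687 and NEJ723, the libraries with at least 20 cells in each range. Of 1460 genes tested, 84 were at least 2-fold higher in the low range in both libraries (5.75%) and 142 were lower (9.73%). Globin UMIs defined the ranges, so these values describe the spread of the members. Depth moved with the globin share, with medians of 36655, 25599 and 21704.5 UMIs across the 3 ranges in NEJ687 and of 33168, 21667 and 17190 in NEJ723, and its part in the differences was not tested.

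Myb was at 122 CPM in the lowest range and at 10.5 in the highest in NEJ687, and at 242 and 44.0 in NEJ723. Kit went from 75.5 to 3.37 and from 168 to 30.1 in the same order. In NEJ634, where the upper ranges were joined because they held few cells, Myb was 228 (194 to 266) under 1% and 56.2 (31.5 to 92.7) above, and Kit was 139 (113 to 169) and 15.0 (4.09 to 38.4). With the same split at 1% in NEJ634, NEJ687 and NEJ723, a choice made after seeing the data, 39 of 1400 genes were higher (2.79%) and 94 lower (6.71%) in 3 of 3 libraries. Cdk6 and Npm1 were likewise higher in the low range. In NEJ687 and NEJ723, Myb and Cdk6 stood under 100 CPM in the range with most globin, so they passed the filter only through the low range. Of 11 tested ribosome biogenesis genes 3 were called higher (Npm1, Wdr12 and Gar1) and 0 lower, with list medians of 0.88 and 1.25 against 0.04 and 0.04 over all genes.

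The rule genes did not move together. Car1 was highest in members with the least globin, at 2517, 1689 and 832 CPM across the 3 ranges in NEJ687 and at 2500, 1336 and 1156 in NEJ723. Klf1 had the opposite order, at 159, 250 and 325 in NEJ687 and 88.8, 177 and 208 in NEJ723. Rhd followed Klf1, at 175, 353 and 528 in NEJ687 and 88.8, 420 and 471 in NEJ723. Epor differed little, at 78.4, 75.8 and 58.8 in NEJ687 and 63.8, 65.0 and 77.1 in NEJ723, and the order of its ranges was not the same in both libraries. These genes chose the members, and the Car1 limit shapes how many cells of each range were found.

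Of 14 heme synthesis genes 11 could be tested, and 11 were lower in the low range, beside 9.73% lower among all genes tested. Alas2 was at 6.13, 48.2 and 164 CPM in NEJ687 and at 3.73, 85.3 and 184 in NEJ723. Slc4a1, the band 3 anion exchanger, was at 7.06, 115 and 517 in NEJ687 and 7.83, 223 and 846 in NEJ723. Of 13 tested membrane genes 8 were lower. Sox6 was at 13.2, 71.7 and 168 and at 6.34, 116 and 190, and Tfrc was at 409, 712 and 1062 and at 342, 826 and 948. Alas2, Slc4a1 and Sox6 were under 100 CPM in the low range, so they passed the filter only through the range with most globin.

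Part of the cell cycle genes were called higher in the members with more globin. Of 15 tested DNA replication genes 8 were lower in the low range (Mcm4, Pcna, Ccne1, Cdc6, Rrm2, Tyms, Slbp and E2f8) and 0 higher. Of 9 tested mitosis genes 5 were lower (Mki67, Top2a, Ccna2, Ccnb2 and Cenpf). Mki67 stood at 402 CPM (385 to 419) below 1% globin and 1006 (973 to 1039) from 1 to under 10% in NEJ687, 357 (335 to 380) and 1224 (1174 to 1275) in NEJ723, and 719 (657 to 784) and 1406 (1267 to 1556) in NEJ634. These intervals cover counting error of the summed UMIs only, and not the spread between cells. Ccnd3 and E2f2 were lower and Cdk6 higher in the low range.

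**Figure D4:**
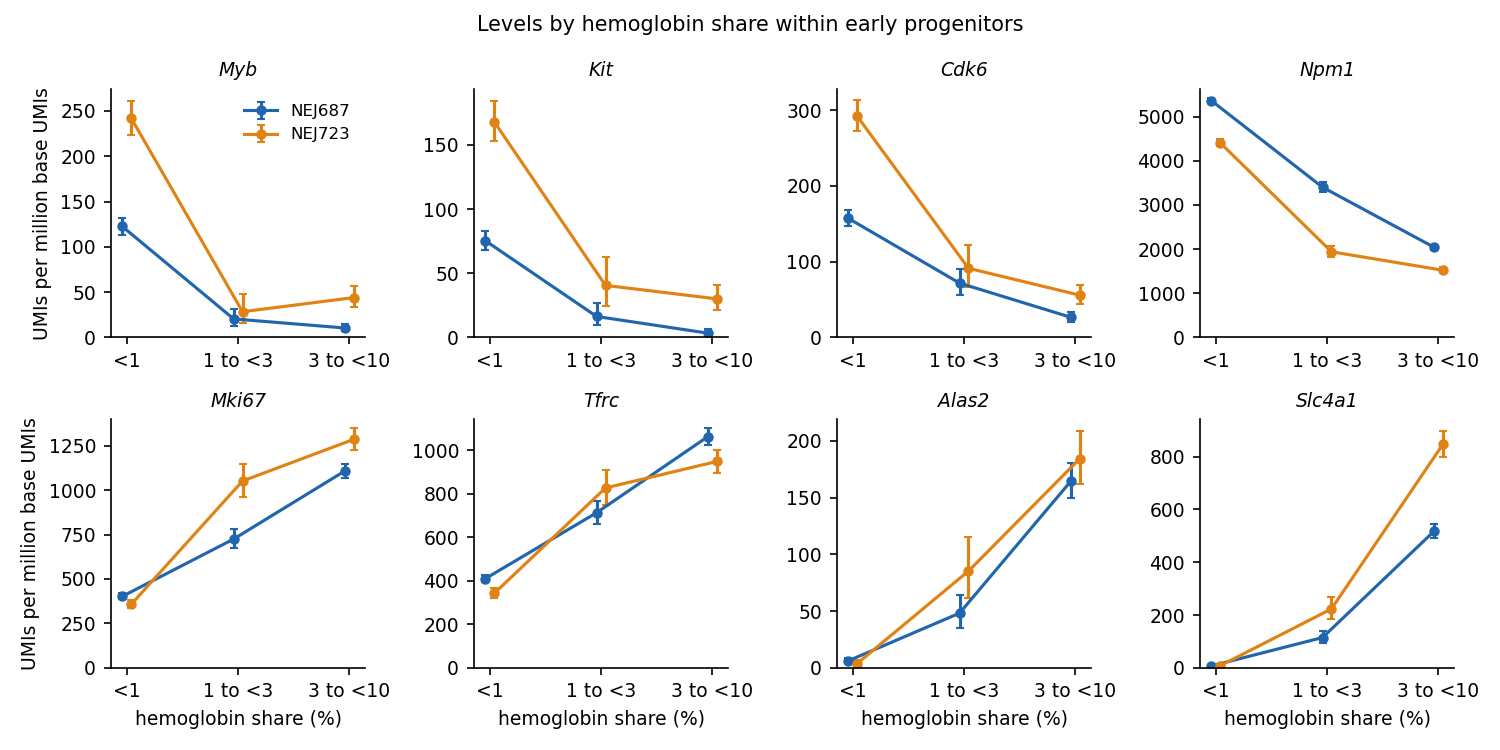
Level of 8 genes (CPM) in members with under 1%, 1 to under 3% and 3 to under 10% globin UMIs in NEJ687 and NEJ723, with exact Poisson intervals as bars. Myb, Kit, Cdk6 and Npm1 are lower in both upper ranges than under 1%, while Mki67, Tfrc, Alas2 and Slc4a1 are higher.

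The members were also compared between the libraries. Of 1743 genes at 100 CPM or more in at least 1 library, 39 spanned a range of at least 4-fold (2.24%), and 23 of 1682 did without NEJ709 (1.37%). The number rose to 79 by the mean over cells, to 70 without shared barcodes and to 197 with cells thinned to 5000 UMIs. Rule genes, mitochondrial and globin genes and 5 sex genes, Xist among them, were left out of this ranking. Of the 39, 30 were highest in NEJ634, and 25 of these 30 had a higher level still in the free RNA of NEJ634 than in its members. NEJ709 was highest for 8, of which 3 were higher in its free RNA, and NEJ723 was highest for 1. H19, an imprinted transcript of fetal liver, was at 350, 21.6, 5.53 and 1.54 CPM in members and at 3318, 3077, 477 and 121 in free RNA. Alb, serum albumin, was at 293, 5.54, 0 and 22.5 in members and at 1630, 865, 640 and 1163 in free RNA. Apoa2, Afp, Cxcl2, Trf, Ahsg and Lcn2, also among the 10 genes with the widest range, were highest in NEJ634 too. Most of these are hepatic genes. In NEJ634 the top 3 cells held 53% of the Cxcl2 UMIs, 58.1% of those of Afp, 51.9% of Alb and 50.5% of Lcn2. For Trf, Apoa2, H19 and Ahsg their share was 50%, 43.0%, 39.3% and 36.9%. With the members rich in the 7 other classes left out, 23 genes spanned 4-fold. With those rich in late neutrophil genes left out too, 16 did, and in NEJ634 H19 fell to 54.8 CPM and Alb to 25.9.

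Trnp1 (ENSMUSG00000056596, chr4:133491100-133498550), a nuclear regulator known from neural progenitors, was at 3.11 CPM in NEJ634 (0.641 to 9.08), 39.3 in NEJ687 (35.4 to 43.7), 122 in NEJ709 (88.5 to 163) and 192 in NEJ723 (179 to 205). Free RNA held 0.0939, 1.37, 7.02 and 7.06, less than the members in each library. A UMI was found in 2 of 51, 66 of 310, 4 of 7 and 68 of 183 members, and in NEJ709 the top 3 cells held 84.1% of its UMIs. Thinned, it was found in 0 of 51, 10.6%, 0 of 7 and 27.9% of members, and in 2.67%, 1.74%, 0 of 36 and 11.7% of the barcodes rich in T- and NK-cell genes. A count of 0 allows a share of up to 6.98% in NEJ634 and 41.0% in NEJ709. Below 1% globin it was at 4.29, 64.9, 125 and 305 CPM, where the value of NEJ709 rests on 4 members. From 1 to under 10% it was at 1.65 in NEJ687 and 28.0 in NEJ723. In NEJ709, 14 of its 44 UMIs came from a member with 6.42% globin, so no drop with the globin share can be read there. The intervals cover counting error of the summed UMIs and not the spread between cells, and the level in NEJ634 rests on 3 UMIs. Gfod2 reached 277 CPM in NEJ709, where 99 of its 100 UMIs came from a single cell, and 3.11, 5.10 and 10.1 in the other libraries.

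**Figure D5:**
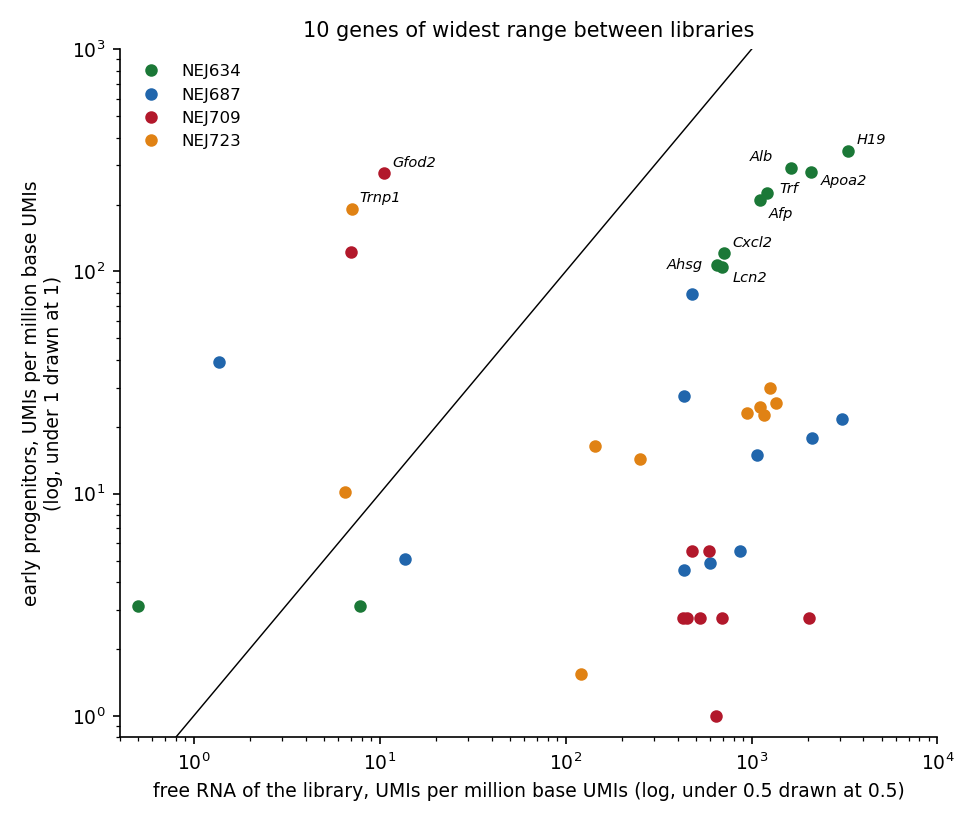
Level in members against level in free RNA of the same library (both CPM, log axes) for the 10 genes of widest range between members of the 4 libraries, with rule, mitochondrial, globin and sex genes left out of the choice and the line of equality. The hepatic genes lie below the line, and Trnp1 lies above it in each library.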

How the data were processed

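The deposited files hold UMI counts per gene and barcode, which the authors made with Cell Ranger. The file headers name version 4, while the labels name 6.0 and the study's methods add that intronic reads were included, so the version behind these counts is open; the build is not given in the sources used here. Each raw matrix was read whole, with 32285 genes, of which 32235 were found in GENCODE M21 by identifier. The members, gene lists and comparisons were chosen with earlier results of these data known. The text names genes of the lists and genes from among the 10 most different genes in each direction against erythroblasts, the 10 highest against granule-gene progenitors and the 10 of widest range. UMIs were summed over cells of a library, and levels, exact Poisson and conditional intervals and ratios were computed with Python 3.11.15, numpy 2.4.6, scipy 1.17.1 and pandas 2.3.3. Genes at 0 were set to a floor of 3 UMIs for ratios. A gene was called at 2-fold, with 100 CPM in the higher population of every library; no gene was tested across cells. The ranges of globin share needed 20 cells each. No doublet caller was run. Results on some genes are not reported here. The steps were tested on simulated counts. Alternatives changed the limits of the rule, the total used, the level filter, thinning and left-out libraries; those without NEJ709, without members rich in late neutrophil genes and the split at 1% globin were chosen after seeing the data. Total counts per library ran from 40214395 to 132485391 UMIs. The 3 libraries that the study's text calls healthy livers entered only the counts of barcodes that met the rule.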

Additional observations from a re-analysis of the deposited data

Results flagged for a closer look

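Barcodes that met the rule for members were also looked for in the 3 libraries that the study's text calls healthy livers, which enter no comparison. NEJ638 held 2 of 769 barcodes (0.260%, exact binomial interval 0.0315 to 0.936%), NEJ654 held 1 of 1217 (0.0822%, 0.00208 to 0.457%) and NEJ677 held 1 of 1997 (0.0501%, 0.00127 to 0.279%). Of the tumor libraries, NEJ709 lay in the same range at 0.197%, and the other 3 lay between 1.97% and 8.21%. Taken only among barcodes that met the rule's globin limit, the shares were 0.275% in NEJ638, 0.103% in NEJ654 and 0.0659% in NEJ677. By this denominator NEJ709 stood at 2.19% (0.887 to 4.47%), near NEJ634 at 2.13% and above NEJ638, NEJ654 and NEJ677. Its interval overlapped that of NEJ638 (0.0333 to 0.990%). The intervals cover counting error within 1 library, and no test between libraries was made. The 2 barcodes of NEJ638 had 8.89% and 6.02% globin UMIs and 0 UMIs of Myb. The barcode of NEJ654 had 22039 UMIs, with 35 of Car1 and 8 of Myb. The barcode of NEJ677 met the rule by 13 UMIs of Car1 alone and had 9 of Myb and 2 of Gata2. None of these barcodes held over 500 UMIs in another library.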

How the results depend on the processing

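No paired analysis was possible because the labels give no groups and no replicate numbers by which libraries could be paired, and the populations were compared within each library throughout. The number of members moved with the limits of the rule. In NEJ634 it was 28 with over 8000 UMIs, 117 with 5 UMIs and 0.05%, 15 with 20 UMIs and 0.2%, 5 without Car1, and 20 without members rich in another class or in late neutrophil genes. In NEJ687 it was 481 with globin under 20%, 174 with 20 UMIs and 93 without Car1. In NEJ709 it was 17 with globin under 20%, 0 without Car1 and 3 without shared barcodes. In NEJ723 it was 303 with globin under 20%, 306 with 5 UMIs, 94 with 20 UMIs and 33 without Car1. Against erythroblasts, dividing by all UMIs gave 343 genes higher and 54 lower, beside 123 and 149 in the report, and moved the median log2 ratio of all genes to 0.78, 0.71, 1.25 and 0.81 from 0.22, 0.15, 0.46 and 0.19. Thinned cells gave 81 and 98, a filter of 50 CPM 234 and 256, one of 200 CPM 55 and 70, and leaving out NEJ709 323 lower. Against granule-gene progenitors the filters gave 138 and 261, and 28 and 80. Genes of 4-fold range numbered 79 by the mean over cells, 197 after thinning, 23 without members of another class, 16 without those rich in late neutrophil genes too, 70 without shared barcodes, 93 and 17 by the filters, and 23 without NEJ709. Within members, 3 equal groups by heme-gene share gave 137 higher, and the split at 1% gave 39 higher and 94 lower. Of the main counts, 63 stayed within their limits and 39 moved, and the cause was not tested. Of the log2 ratios to erythroblasts followed through the alternatives, those of Tfrc and Mki67 changed sign in NEJ709, with the values given in the report. Gata2 had 1 UMI in the members of NEJ709 and 0 when cells were thinned or shared barcodes left out, so no direction is given for it there. NEJ709 with 7 members, and genes under 100 CPM, limit what could be called.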

Other observations

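The 7 members of NEJ709 can be listed cell by cell. Their depth ran from 5043 to 88566 UMIs and their globin share from 0.0327% to 6.42%. Myb was at 2, 14, 30, 27, 0, 17 and 3 UMIs in the order of the file. Trnp1 was found in 4 of them, at 7, 15, 8 and 14 UMIs, each with at least 14 UMIs of Myb. The cell of 88566 UMIs held 99 UMIs of Gfod2, and the other members of NEJ709 held 1 in all.

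Hbb-y, the embryonic globin, was at 3.95 per 1000000 of all UMIs in members of NEJ687 and at 12.3 in its erythroblasts, and at 3.80 and 11.7 in NEJ723.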
